A study of Gallus gallus with 6 samples.

Results

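Growing feathers of the leg were set against growing feathers of the neck of adult chickens (*Gallus gallus*). The ratios used 4 of the 6 RNA-seq libraries of the series, 2 from leg and 2 from neck. The remaining 2 came from wing and entered the statistical fit, where they added to the estimate of spread. All birds were wild type (strain given as domesticus) and untreated, and the methods of the study describe adult males 3 to 6 months old. The labels describe plucked feathers in their growth phase whose epithelium was separated from the pulp and pooled over 5 feathers, whereas the methods of the study name whole follicles, or dermal papilla and pulp. Each region's replicate 1 stands in one table and its replicate 2 in another, so leg was divided by neck within a table and levels were never averaged across tables. In the second table the column headers carry another chicken number for each region, so that region and bird cannot be told apart there.

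A growing feather is an epithelial tube around a core of mesenchymal pulp, which brings vessels, nerves and connective tissue. The epithelium folds into barb ridges, pigment cells load the barb cells with melanin, and the barb cells then fill with feather keratins (corneous beta-proteins) encoded by clustered families of near-identical genes. Signals of the hedgehog, BMP, Wnt, FGF and Notch pathways pattern the branches, and homeobox genes mark where on the body skin lies. Feather form differs between body regions, and the comparison asks which genes and gene families differ between feathers of leg and neck in the same direction in both tables.

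The first table holds whole-number values of an unstated unit, with gene names and loci, for 6534 entries, of which 525 merge several genes and 580 have no gene name. They summed to 3051339 in the leg library and 4195932 in the neck library, and the 10 highest entries took 67.6% and 66.9% of these sums. The second table holds FPKM (fragments scaled to transcript length and to the number mapped) for 6534 genes, of which 915 were listed at 0 in both leg and neck. No count of fragments is known, so no counting error can be given. Genes listed once in each table numbered 2192, and 2141 of them had a mean of at least 1 in each table and were tested. Before any scaling the median leg-to-neck log2 ratio of these genes was -0.31 for the first table and -0.09 for the second table. All ratios below are relative log2 ratios of leg over neck on the log2(value + 1) scale, from which the table's median was subtracted, so that 0 is the median gene and the ratios of low genes are understated. Loci are those of the first table, which does not name its assembly.

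Of the 2141 genes, 212 were higher in leg (9.90% of the genes tested) and 213 were lower in leg (9.95%), by limma with the table as a block at a Benjamini-Hochberg adjusted p under 0.05 and the same sign in both tables. The SEs and p-values of this fit also rest on the wing libraries. With only the 4 leg and neck libraries 552 were higher and 548 lower. Among the 212 higher genes the size of the relative log2 ratio ran to 2.88 with a median of 0.42, and 26 were at least 2-fold higher. Among the 213 lower genes it ran to 1.89 in size, also with a median of 0.42, and 5 were at least 2-fold lower. The even split follows the centring on the median gene. After that centring, more of the genes past 2-fold were higher than lower in leg. Counts of called genes within the gene lists below are to be read against the shares of 9.90% and 9.95%. By fold alone, 46 genes were at least 1.5-fold higher in leg in both tables (2.15%) and 22 were at least 1.5-fold lower in both (1.03%). With the values as deposited these counts were 28 and 68, so that the excess of higher genes also depends on the centring. Of the genes past 1.5-fold higher in one table, the shared 46 were 78.0% of those in the first and 71.9% of those in the second. For lower genes the shared 22 were 47.8% and 61.1%, and 0 genes past 1.5-fold in one table passed it in the opposite direction in the other.

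**Figure D1:**
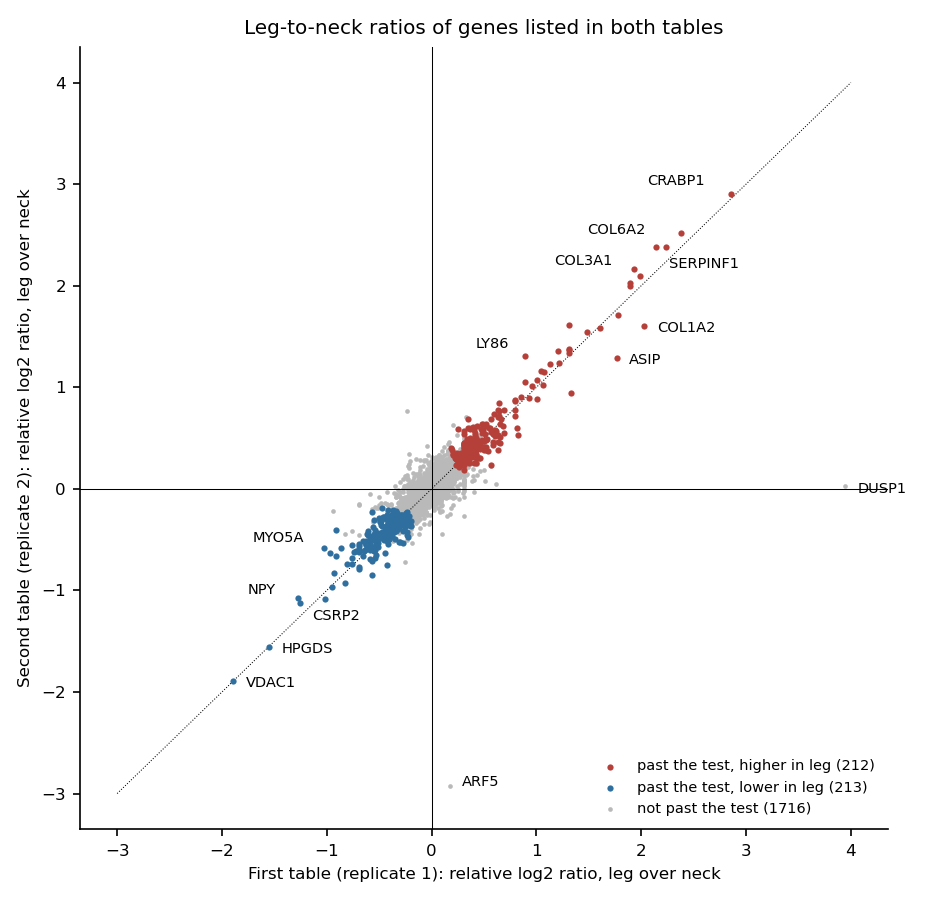
Relative log2 ratio of leg over neck for the 2141 genes tested, with the first table (replicate 1) on the x axis and the second table (replicate 2, FPKM) on the y axis, and equality of the 2 tables as a dotted line. Red points are the 212 genes higher in leg and blue points the 213 lower in leg by limma, and grey points are the others; *CRABP1* lies at the upper end and *VDAC1* at the lower end near the dotted line, while *DUSP1* and *ARF5* lie far from it.

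The ratios of the 2 tables were correlated. Across genes, which are not independent replicates, they had a Pearson r of 0.87, and 1774 of 2141 (82.9%) had the same sign. By first-table mean of leg and neck, r was 0.91 under 20 (775 genes), 0.88 from 20 to 100 (1075 genes) and 0.71 at 100 or more (291 genes). The difference between the tables had a robust SD of 0.11 per gene, against 0.24 and 0.23 for the ratios themselves across genes in the first and second table. Nothing in the labels says that the replicates came from separate birds or separate RNA, so the p-values measure the spread between these libraries only. Without the block no gene passed the threshold (0 higher, 0 lower, and 20 genes with an unadjusted limma p under 0.05). That fit counts the difference in unit between the tables as spread. With the values as deposited the counts were 38 higher and 232 lower, of which 38 and 179 were among the genes above.

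The gene with the largest increase in leg was *CRABP1* (chromosome 10, 3636151 to 3682220), which encodes a cytoplasmic carrier of retinoic acid. Its first-table value was 34 in leg and 5 in neck, and its FPKM was 59.1 in leg and 7.55 in neck. The ratio was 2.88 ± 0.078 (SE), a 7.36-fold difference, with a limma adjusted p of 1.95e-05, and leg was above neck in both tables by nearly the same factor.

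Most of the other large increases were genes of connective tissue. *COL6A2* (chromosome 7, 6764394 to 6790430), a chain of the microfibrillar collagen VI, had values of 18 in leg and 4 in neck and an FPKM of 38.1 in leg and 7.01 in neck. *SERPINF1* (chromosome 19, 5406928 to 5413790), a secreted inhibitor of vessel growth, had 24 in leg and 6 in neck and 53.8 in leg and 10.2 FPKM in neck. *SPARC* (chromosome 13, 12911089 to 12927497), a collagen-binding matrix protein, was the most abundant of them by FPKM. It had 111 in leg and 34 in neck, and 234 FPKM in leg and 57.6 FPKM in neck. Their log2 ratios were 2.31, 2.26 and 2.04, with SEs of 0.10, 0.099 and 0.083, and leg exceeded neck at least 3-fold in each table as deposited. *COL3A1* (77.2 FPKM in leg, 17.6 in neck), *COL1A2* (39.6 in leg, 13.3 in neck) and *OGN* (34.2 in leg, 8.43 in neck), which encode chains of the fibrillar collagens III and I and a small leucine-rich proteoglycan, had ratios of 2.05, 1.82 and 1.94. None of these connective tissue genes was highest in leg. As deposited, *COL6A2*, *SERPINF1*, *SPARC*, *COL3A1*, *COL1A2* and *OGN* were higher in wing than in leg in both tables. In wing *COL6A2* had 41 and 112 FPKM, and *SPARC* had 164 and 435 FPKM. Other large increases were those of *CD74*, the invariant chain of MHC class II, at 1.96, *GPX3*, a secreted glutathione peroxidase, at 1.74, *FSTL1*, a secreted relative of follistatin, at 1.60, and *ASIP*, the agouti signalling protein that blocks the melanocortin receptor, at 1.53. Adjusted p over the genes of large increase named here ran from 1.95e-05 to 0.0029, the highest being that of *ASIP*.

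The largest decrease in leg was in *VDAC1* (chromosome 13, 16119876 to 16134982), which encodes a channel of the outer mitochondrial membrane. It had a value of 9 in leg and 45 in neck, and an FPKM of 26.3 in leg and 107 in neck. Neck was above leg in both tables, and the 2 ratios were equal at -1.89, giving -1.89 ± 0.065 with an adjusted p of 3.19e-05. *HPGDS* (chromosome 4, 37449943 to 37475301), a prostaglandin D synthase, followed at -1.55 ± 0.078, with values of 7 in leg and 28 in neck and an FPKM of 13.0 in leg and 42.8 in neck. *CSRP2* (chromosome 1, 38237619 to 38245641), a LIM-domain protein that binds actin-associated partners, was the most abundant of the genes with large decreases, with 177 in leg and 526 in neck, and 296 FPKM in leg and 691 FPKM in neck. Its ratio was -1.19 ± 0.085, with an adjusted p of 0.00048. *NPY*, the precursor of neuropeptide Y, had 3 in leg and 11 in neck and 6.38 FPKM in leg and 15.6 in neck, a ratio of -1.18. *MSX1*, a homeobox gene, had a ratio of -1.05 at low levels (1 in leg and 4 in neck; 1.91 FPKM in leg and 5.60 in neck).

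The remaining 7 of the 12 largest decreases were under 2-fold. *CMTM7*, which encodes a membrane protein of the MARVEL family, was the highest of these by FPKM after *PRDX6*, a peroxiredoxin. *CMTM7* had 145 FPKM in leg and 304 in neck, and *PRDX6* had 259 in leg and 462 in neck, with ratios of -0.96 and -0.77. *FBP1*, the gluconeogenic fructose-1,6-bisphosphatase, had 34.7 FPKM in leg and 66.9 in neck, and *SYNPR*, a synaptic vesicle protein, had 18.8 in leg and 39.2 in neck, with a ratio of -0.88 for each. *MYO5A*, the motor that carries melanosomes, *TFAP2B*, an AP-2 transcription factor, and the gene entry *MIR6642*, whose value covers the locus and not a mature microRNA, had ratios of -0.81, -0.80 and -0.79. *MYO5A* was the least alike in the tables, at -1.03 in replicate 1 and -0.58 in replicate 2, and had the highest adjusted p of the 12, 0.032.

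**Figure D2:**
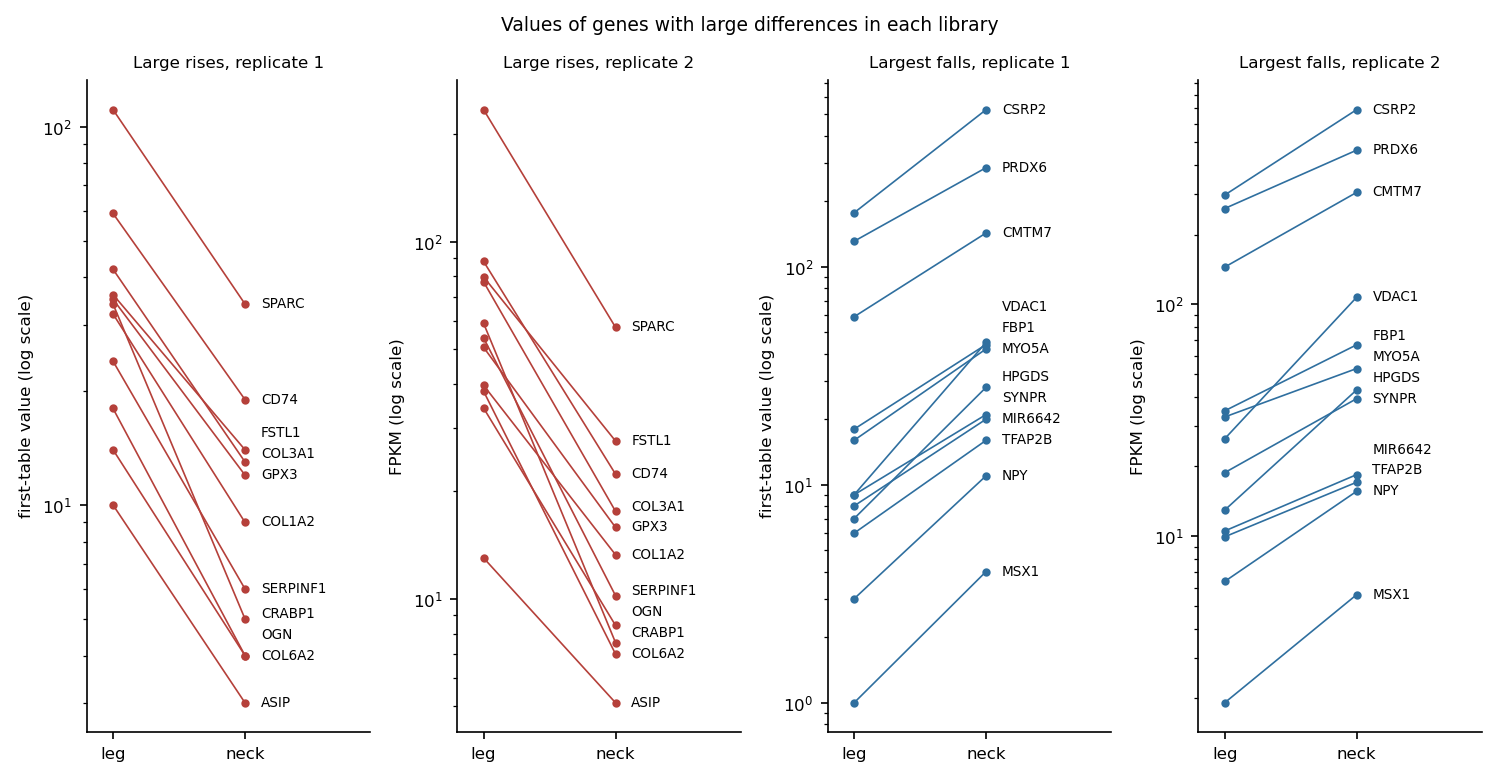
Values of 11 genes with large increases (red, left panels) and the 12 with the largest decreases (blue, right panels), in the leg and neck library of each replicate, on log axes in the unit of the table (first-table value or FPKM). Each line joins leg and neck of one gene: every red line falls towards neck and every blue line climbs towards neck, as for *CRABP1* (59.1 FPKM in leg, 7.55 in neck) and *VDAC1* (26.3 FPKM in leg, 107 in neck).

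Collagens and other matrix genes increased together in leg. All 5 members of the collagen list found in both tables were higher in leg, as deposited and after quantile normalization too. Their medians were 1.93 (replicate 1) and 1.60 (replicate 2) against 0 for all genes tested. They were *COL6A2*, *COL3A1* and *COL1A2*, given above, *COL18A1* of the vascular and epithelial basement membrane (1.14), and *COL17A1*, the transmembrane collagen of hemidesmosomes (0.91). *COL17A1*, an epithelial gene, had 22 in leg and 14 in neck, and 66.4 FPKM in leg and 37.7 in neck. Of genes listed in the second table only, where 299 of 2435 (12.3%) stood at least 1.5-fold higher in leg and 72 (2.96%) at least 1.5-fold lower, with no test, 6 of 8 collagens stood higher and 0 lower. Centred on the genes of that table alone, the counts over all genes were 230 higher and 112 lower. Counts of second-table genes within the lists below are to be read against these shares. A gene near 0 in one region passes the level filter only through the other region, so counts of such genes describe the table and support nothing further. Among them *COL6A1* had 18.6 FPKM in leg and 3.36 in neck, *COL4A1* 15.4 in leg and 5.59 in neck, and *COL6A3* 8.87 in leg and 2.93 in neck. The chains of collagen VI and the basement membrane collagen IV were thus on the same side as the fibrillar ones.

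Non-collagen matrix proteins went the same way, with 5 of 6 tested higher in leg and medians of 1.19 and 1.38. Beside *SPARC* and *OGN* these were the proteoglycans *VCAN* (versican, 1.46 ± 0.19), *DCN* (decorin, 1.11 ± 0.072) and *LUM* (lumican, 0.88 ± 0.093). *DCN* had 94 in leg and 55 in neck, and 305 FPKM in leg and 146 FPKM in neck, the highest FPKM of the family in either region. *MGP*, the matrix Gla protein, did not pass the test, with 2.34 FPKM in leg and 2.96 in neck. In the second table alone, 9 of 17 stood at least 1.5-fold higher and none lower, among them *LTBP1*, which stores latent TGF-beta (14.5 FPKM in leg, 6.38 in neck), *HAPLN1*, a hyaluronan link protein (11.8 in leg, 4.51 in neck), and *THBS2*, thrombospondin 2 (8.41 in leg, 2.80 in neck). The osteopontin gene *SPP1* (74.8 in leg, 91.6 in neck) and fibulin 1, *FBLN1* (20.8 in leg, 19.5 in neck), stood close to the median gene.

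Of 10 matrix proteases and inhibitors, 6 were higher in leg and *SERPINE2*, a protease inhibitor also called protease nexin, was lower (204 FPKM in leg, 327 in neck; -0.58 ± 0.072). The higher ones were *SERPINF1*, the gelatinase *MMP2* (62.3 FPKM in leg, 25.8 in neck; 1.32), the collagen chaperone *SERPINH1* (101 in leg, 44.9 in neck; 1.23), the cathepsins *CTSK* and *CTSS*, and the metalloprotease inhibitor *TIMP3* (0.39). With the values as deposited 3 of the 6 kept the call and with quantile normalization 4. Of members listed in one table, 0 of 7 stood at least 1.5-fold higher and 1 lower in the first, and 0 of the 11 above the level filter passed 1.5-fold either way in the second. The 4 integrins tested, among them *ITGB1* (107 FPKM in leg, 95.0 in neck) and *ITGA6* (87.0 in leg, 76.2 in neck), had ratios of 0.15 to 0.30 and did not pass, whereas 3 of 4 integrins above the filter in the second table alone stood at least 1.5-fold higher.

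Markers of mesenchyme followed the matrix genes, which they overlap. Of 7 tested, 5 were higher in leg (*COL3A1*, *SPARC*, *COL1A2*, *DCN*, *LUM*), *MSX1* was lower, and *VIM*, the intermediate filament of mesenchymal cells, did not pass (159 FPKM in leg, 133 in neck; adjusted p of 0.12). Of 8 more in the second table alone, 7 stood at least 1.5-fold higher. Among them were *PDGFRA*, the receptor that marks fibroblasts (16.7 FPKM in leg, 4.05 in neck), and *TWIST2*, a transcription factor of dermal cells (7.03 in leg, 0.738 in neck). *TWIST2* reached the level filter through leg alone. Summed over the list, mesenchyme markers reached 367 in leg and 202 in neck over 7 genes of the first table, and 921 FPKM in leg and 419 in neck over 17 genes of the second, 16 of which had ratios above the median. Markers of epithelium were mixed. They summed to 867 in leg and 993 in neck over 7 genes of the first table. Over 9 genes of the second they summed to 2630 FPKM in leg and 2761 in neck. Like the mesenchyme sums, these are not centred on the median gene. Ratios lay above the median for 2 of the 7 genes and below it for 5. Of the 9 genes, 6 lay above and 3 below. The 6 include *KRT5*, which was listed at 0 in both regions and lies above the median only through the centring. Of the 4 tested, *COL17A1* was higher, and the cadherin *CDH1*, the junction protein *JUP* and the basal-cell factor *TP63* had ratios of -0.10, -0.15 and 0.01. In such tissue samples fewer cells of a type and less RNA per cell cannot be told apart. How much pulp stayed with the epithelium of each library is not stated. Whether this or the marker levels had a part in the matrix results was not tested.

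Blood, vessel and leukocyte markers were listed in the second table only, and several stood higher in leg there. Of 7 blood and endothelium markers listed, the 5 with a mean of at least 1 FPKM stood at least 1.5-fold higher in leg, and *FLT1* and *KDR* reached that mean through leg alone. They included the endothelial cadherin *CDH5* (7.90 FPKM in leg, 2.48 in neck) and the VEGF receptors *FLT1* (3.29 in leg, 0.708 in neck) and *KDR* (3.17 in leg, 0.699 in neck). The list summed to 22.2 FPKM in leg and 6.61 in neck over 7 genes, *HBE* being listed at 0 in both. Of 8 leukocyte markers listed, 6 stood at least 1.5-fold higher, among them *CD4* (4.37 in leg, 0.377 in neck) and the actin bundler *LCP1* (6.66 in leg, 2.36 in neck), while the T-cell receptor chain *CD3E* had 13.7 in leg and 14.1 in neck. *CD4* reached the level filter through leg alone. With 1 library per region none of these could be tested.

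Of 6 leukocyte surface and antigen presentation genes tested, 3 were higher in leg and 0 lower. *CD74* (chromosome 13, 13146840 to 13168747) had 59 in leg and 19 in neck, and 88.0 FPKM in leg and 22.4 FPKM in neck, a 3.89-fold difference with an adjusted p of 0.00012. *BF2*, a classical MHC class I chain of the chicken, had 33.9 FPKM in leg and 13.4 in neck (1.34 ± 0.085). *LY86*, a partner of a lymphocyte Toll-like receptor, had 17.2 FPKM in leg and 6.89 in neck (1.10 ± 0.13), and these 3 genes stayed called as deposited and after quantile normalization, while with identical names only 2 of 5 were called. The tetraspanins *CD9* (404 FPKM in leg, 429 in neck) and *CD81* and the receptor *CD47* did not pass. In the first table alone, where 122 of 3038 genes (4.02%) stood at least 1.5-fold higher in leg and 153 (5.04%) at least 1.5-fold lower, the MHC class I genes *B2M* (174 in leg, 131 in neck) and *BF1* (22 in leg, 11 in neck) stood higher. In the second table alone 16 of 30 leukocyte surface and presentation genes stood higher, against 12.3% of all genes there. Examples were the peptide transporter *TAP1* (5.80 FPKM in leg, 1.44 in neck), the class II chain *BLB2* (12.7 in leg, 6.13 in neck) and *LYZ*, lysozyme (7.49 in leg, 1.83 in neck). The 1 gene lower was *CD24*, a surface protein also found on keratinocytes, with 363 FPKM in leg and 616 in neck. The leukocyte markers above share members such as *BLB2* with this list, so their sums of 47.0 FPKM in leg and 26.7 in neck over 8 genes are no separate evidence.

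Some genes of retinoic acid handling were higher in leg. Of 3 tested, *CRABP1* and *DHRS3*, which turns retinal back to retinol (18.3 FPKM in leg, 13.7 in neck; 0.46 ± 0.095), were higher, and the retinol-binding *RBP5* had 37.6 in leg and 38.3 in neck. As deposited only *CRABP1* kept the call. *CRABP2*, the second cellular carrier, was listed in the first table with 17 in leg and 6 in neck. *ALDH1A3*, an enzyme that makes retinoic acid, was listed in the second with 53.5 FPKM in leg and 15.1 in neck, one of the larger differences in that table. The retinoic acid responsive *RARRES1* (9.07 in leg, 4.13 in neck) and *RARRES2* (20.2 in leg, 9.27 in neck) stood higher as well. These were 3 of 7 members above the filter in the second table alone, and *ALDH1A2*, a relative of *ALDH1A3*, had 9.08 in leg and 9.17 in neck. Over the members that were tested or passed the level filter the medians were 0.43 (5 genes, first table) and 0.48 (10 genes, second table), against 0.00 and 0.05 for all genes.

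**Figure D3:**
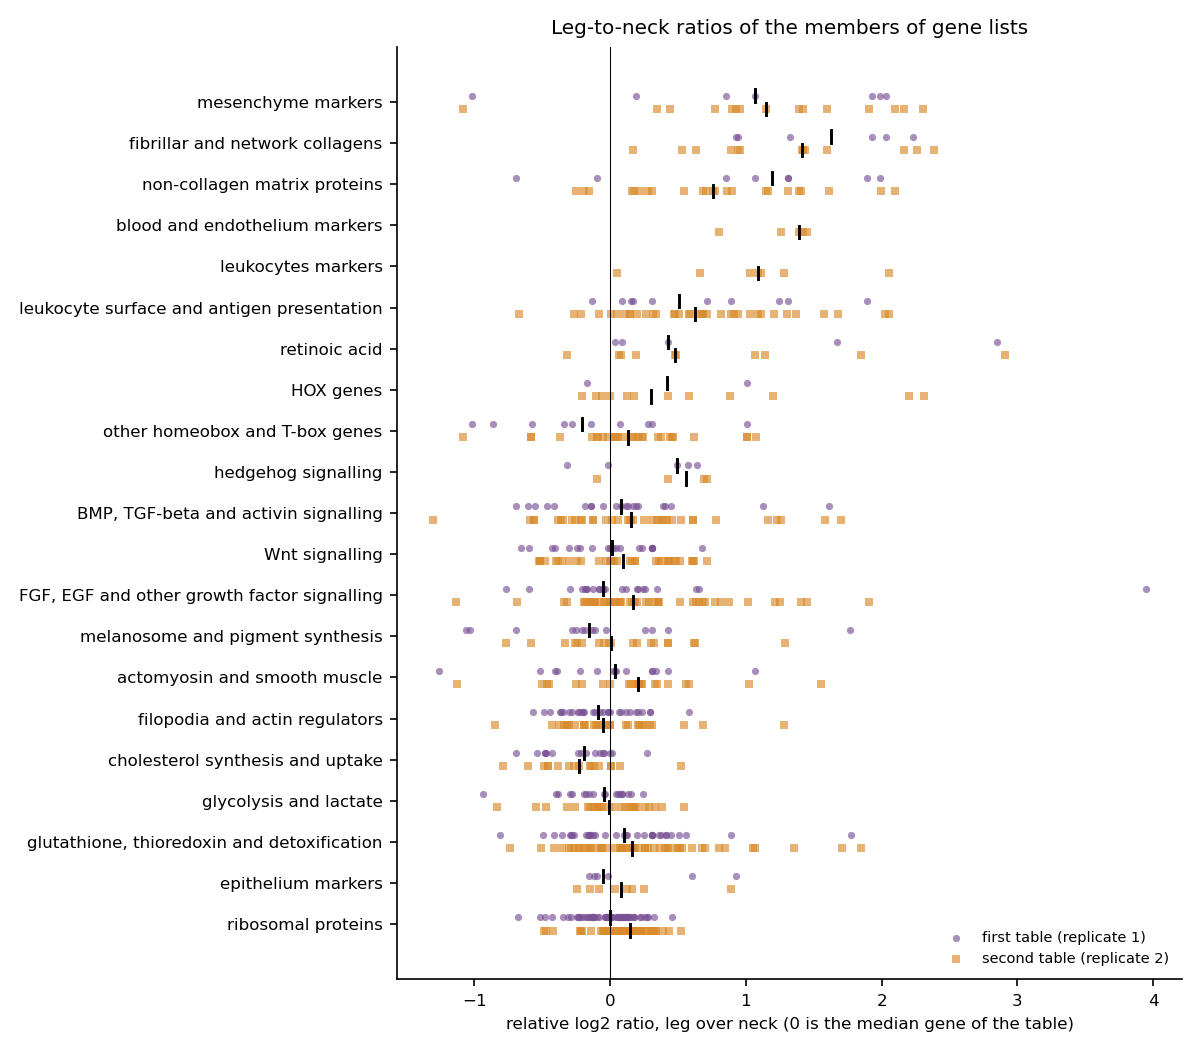
Relative log2 ratios of leg over neck (x axis, 0 is the median gene) for the members of 21 gene lists that passed the level filter, with circles for the first table, squares for the second and black bars for the median of each list and table. The list labelled fibrillar and network collagens, which also holds *COL17A1* (medians 1.63 and 1.41 over the members plotted), and mesenchyme markers (1.07 and 1.15) lie to the right, and cholesterol synthesis (-0.19 and -0.23) to the left.

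A few genes of one cofactor were chosen after their values were seen, and their values support nothing about the pathway. Tetrahydrobiopterin is a cofactor of nitric oxide synthases and other enzymes, and *GCH1*, the first enzyme of its synthesis, had 14.9 FPKM in leg and 2.93 in neck in the second table. *GCHFR*, the regulator of that enzyme, had 4.80 FPKM in leg and 1.75 in neck. *QDPR*, which regenerates the cofactor, had 35 in leg and 22 in neck, and 87.2 FPKM in leg and 45.5 in neck, a ratio of 0.99 ± 0.072 with an adjusted p of 0.00049. The second synthesis enzyme *PTS* (16 in leg and 20 in neck, first table) and the dehydratases *PCBD1* (8.81 FPKM in leg, 7.15 in neck) and *PCBD2* (30.7 in leg, 33.6 in neck) did not stand apart. Of these genes *QDPR* and *PCBD2* are in both tables and were tested, and *QDPR* passed.

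Among HOX genes, which mark position along the body axis and along limbs, *HOXB4* was higher in leg and *HOXD4* did not pass the test. *HOXB4* had 25 in leg and 15 in neck, and 27 FPKM in leg and 15.2 in neck (0.95 ± 0.11, adjusted p of 0.0035), and its first-table locus is a long one (chromosome 27, 3647687 to 4003342). *HOXD4* had 17 in leg and 24 in neck, and 46.1 FPKM in leg and 49.3 in neck (-0.08 ± 0.11). The other HOX genes had values in the second table only. *HOXA9*, a posterior HOX gene, had 4.52 FPKM in leg and 0.279 in neck, its neighbour transcript *HOXA10-AS* had 4.07 in leg and 0.0888 in neck, and *HOXB3* had 12.6 in leg and 5.28 in neck. *HOXA9* and *HOXA10-AS* passed the level filter through leg alone. *HOXA10*, under the level filter, had 1.15 FPKM in leg and was listed at 0 in neck. The anterior genes *HOXA2* (8.09 in leg, 9.44 in neck), *HOXA3* (6.58 in leg, 7.43 in neck) and *HOXA4* (6.23 in leg, 5.83 in neck) had ratios between -0.11 and 0.18. A further 8 HOX genes were listed at 0 in both regions, and with 1 library per region none of these differences could be tested.

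Of 8 other homeobox and T-box genes tested, 4 were lower and 1 was higher, the same counts as deposited and after quantile normalization. *MSX2*, a BMP-responsive homeobox gene of skin appendages, was the most abundant, with 147 in leg and 272 in neck, and 246 FPKM in leg and 392 in neck (-0.58 ± 0.069). *DLX5* had 32.4 FPKM in leg and 52.2 in neck (-0.72 ± 0.11), *LMX1B*, which marks dorsal limb mesenchyme, 31.8 in leg and 44.1 in neck (-0.35 ± 0.069), and *MSX1* is given above. *BARX2*, which is expressed in hair and other epithelia of mammals, was higher, with 25.6 FPKM in leg and 12.5 in neck (1.04 ± 0.11). With genes matched by identical names only, *BARX2* was not matched, and 0 of 7 were higher. Of 63 such genes in the second table alone 20 passed the level filter. Among these 20, 3 stood at least 1.5-fold higher and 0 lower, against 12.3% and 2.96% of all genes there. All 3 were at low levels and passed the filter through leg alone: *MEIS1* (2.00 FPKM in leg, 0.586 in neck), *PRRX2* (2.44 in leg, 0.820 in neck) and *PAX3* (1.52 in leg, 0.753 in neck).

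Of the hedgehog pathway, which acts in the branching epithelium, *SHH*, the ligand, and *PTCH1*, its receptor and target, were higher in leg. *SHH* had 81 in leg and 64 in neck, and 127 FPKM in leg and 82.1 in neck (0.68 ± 0.088, adjusted p of 0.0054). *PTCH1* had 11 in leg and 9 in neck, and 17.1 FPKM in leg and 10.97 in neck (0.63 ± 0.12), and the inhibitor *SUFU* did not pass (-0.05). With the values as deposited neither was called, although both stayed above neck in both tables.

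BMP, TGF-beta and activin genes were split. Of 18 tested, 5 were higher and 5 lower in leg. The lower ones were the BMP-induced repressors *ID3* (255 FPKM in leg, 401 in neck; -0.62 ± 0.075) and *ID2* (106 in leg, 167 in neck; -0.58), the inhibitory *SMAD6* (30.8 in leg, 50.1 in neck; -0.57), the pseudoreceptor *BAMBI* (915 in leg, 1241 in neck; -0.38) and the type I receptor *ACVR1* (109 in leg, 142 in neck; -0.37). *BAMBI* was the most abundant of them, with 542 in leg and 893 in neck in the first table. The higher ones held the secreted BMP and Wnt antagonist *SOSTDC1* (82.9 FPKM in leg, 37.3 in neck; 1.18 ± 0.072), *FSTL1*, *ID4* (0.50), *TGFB3* (0.43) and *SMAD1* (0.33). *ID4* thus lay on the other side of 0 from *ID2* and *ID3*. As deposited, 2 higher and 4 lower were called. Of 19 genes above the level filter in the second table alone, 5 stood at least 1.5-fold higher and 1 lower, against 12.3% and 2.96% of all genes there. The ligand *BMP5* stood lower (3.14 FPKM in leg, 9.90 in neck), and *INHBA*, the activin A subunit, stood higher (8.34 in leg, 2.07 in neck).

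In Wnt signalling 2 of 15 genes were higher and 4 lower, the 2 higher being a share near the 9.90% of all genes. *WNT5B*, a ligand, had 25.7 FPKM in leg and 17.6 in neck (0.65 ± 0.14), and *WNT11* had 18.6 in leg and 14.5 in neck (0.37 ± 0.091), and neither was called as deposited. The lower genes were the nuclear effector *TCF7* (68.8 in leg, 105 in neck; -0.58), the secreted inhibitor *WIF1* (30.6 in leg, 47.4 in neck; -0.56), the membrane inhibitor *APCDD1* (20.3 in leg, 29.0 in neck; -0.41) and *WLS*, which brings Wnt proteins to the surface (37.3 in leg, 51.1 in neck; -0.38). All 4 kept the call as deposited and after quantile normalization.

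Among 17 growth factor genes, 4 were higher and 1 lower in leg, whereas as deposited 0 were higher and 2 lower. The receptor *FGFR3* was the lower one (27.5 FPKM in leg, 47.8 in neck; -0.72 ± 0.084). *IGFBP4*, a binding protein of insulin-like growth factors (0.70), the vessel growth factor *VEGFA* (0.58), the heparin-binding *MDK* (0.52) and the ligand of the receptor KIT, *KITLG* (0.29), were the higher ones. Among 31 more in the second table alone, 11 stood higher and 1 lower, against 12.3% and 2.96% of all genes there. *FGF10* had 5.23 FPKM in leg and 1.43 in neck, and its close relative *FGF7* 5.03 in leg and 1.43 in neck, both ligands that mesenchyme sends to epithelium. *FGF9* had 8.55 in leg and 4.05 in neck, and *PTN*, a heparin-binding growth factor, 39.8 in leg and 17.3 in neck. The 1 lower gene, *FGFBP2*, an FGF-binding protein by name, had 8.38 in leg and 21.0 in neck.

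Of 14 genes of the Notch pathway, 2 were higher and 0 lower, a share of higher genes near the 9.90% of all genes, and as deposited 0 were called. The higher genes included *NCSTN*, a subunit of γ-secretase (35.5 FPKM in leg, 29.4 in neck; 0.37 ± 0.076). The receptor *NOTCH1* had 29.9 FPKM in leg and 27.5 in neck, *NOTCH2* had 48.2 in leg and 49.7 in neck, and their ratios lay between -0.02 and 0.21 in the tables. The ligands *JAG1* and *JAG2*, listed in the first table, had 15 and 56 in leg and 17 and 65 in neck.

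Pigment genes were split. Of 10 tested, 3 were lower: *SLC45A2*, a melanosomal transporter (14.0 FPKM in leg, 26.3 in neck; -0.73 ± 0.078), *TYR*, tyrosinase (36.0 in leg, 48.7 in neck; -0.30 ± 0.078), and *MYO5A*. The 3 higher were *ASIP*, the endothelin receptor of bird melanocytes *EDNRB2* (22.4 in leg, 19.2 in neck; 0.36) and *KITLG* (169 in leg, 144 in neck; 0.29), and *ASIP* alone of these kept the call as deposited. *ASIP* (chromosome 20, 1628079 to 1661207) had 10 in leg and 3 in neck, and 13.0 FPKM in leg and 5.12 in neck, and its ratios of 1.77 and 1.29 in the tables differed more than those of most called genes. *RAB38*, a small GTPase of melanosome formation listed in the first table, had 11 in leg and 30 in neck, whereas *TYRP1*, a tyrosinase-related enzyme listed in the second, had 20.2 FPKM in leg and 13.7 in neck. The melanocyte regulators *KIT* (65.5 in leg, 70.5 in neck; -0.02) and *MITF* (38.9 in leg, 49.4 in neck; -0.25) did not pass. Melanocyte markers summed to 194 in leg and 273 in neck in the first table and to 199 FPKM in leg and 230 in neck in the second, where *PMEL* and *DCT* were listed at 0.

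Of 24 filopodia and actin regulators, 6 were lower in leg and 3 were higher. *ACTB*, cytoplasmic beta-actin, had 1005 in leg and 1741 in neck, and 1621 FPKM in leg and 2159 in neck (-0.40 ± 0.11, adjusted p of 0.045). *CFL2*, a cofilin that severs filaments, had 25.5 in leg and 49.9 in neck (-0.71), and the Arp2/3 subunits *ARPC1A* (-0.44) and *ACTR2* (-0.26), the regulator *ABI1* (-0.36) and the profilin *PFN2* (-0.35) were also lower. The Arp2/3 subunit *ARPC5* (0.30) and the linkers of membrane and actin *MSN*, moesin (118 in leg, 86.5 in neck; 0.56), and *EZR*, ezrin (362 in leg, 324 in neck; 0.27), were higher. As deposited, 3 lower and 0 higher were called. Of 12 actomyosin genes, *CSRP2*, the myosin light chain *MYL9* (-0.45), the LIM protein *PDLIM5* (-0.49) and the tropomyosin *TPM1* (160 in leg, 233 in neck; -0.42) were lower. *MYH9*, the non-muscle myosin heavy chain, went the other way, with 21 in leg and 12 in neck, and 78.8 FPKM in leg and 40.8 in neck (1.05 ± 0.080). These 4 lower and 1 higher were also the counts as deposited. *ACTA2*, the smooth muscle actin of vessels and pulp, listed in the second table, had 12.5 FPKM in leg and 3.93 in neck, and muscle markers summed to 32.6 in leg and 21.4 in neck over 9 genes.

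Cholesterol synthesis and uptake genes that passed the test were all lower. Of 11 genes tested, 5 were lower in leg and 0 higher, as deposited and after quantile normalization too. *INSIG1*, the sterol-regulated brake on the pathway, had 15 in leg and 31 in neck, and 40.5 FPKM in leg and 75.4 in neck (-0.74 ± 0.071, adjusted p of 0.0019). The enzymes *SQLE* (19.7 FPKM in leg, 32.5 in neck; -0.57), *ACAT2* (35.9 in leg, 53.1 in neck; -0.47) and *FDFT1* (40.1 in leg, 59.2 in neck; -0.34) and the sterol carrier *STARD4* (29.4 in leg, 44.5 in neck; -0.48) completed the 5. None of the 6 members in the second table alone reached 1.5-fold. The list medians were -0.21 and -0.26 against 0 for all genes tested.

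In glycolysis 3 of 17 genes were lower and 0 higher: *FBP1*, the phosphoglucomutase *PGM2* (-0.43) and the pyruvate kinase *PKM* (275 FPKM in leg, 352 in neck; -0.32). As deposited 2 of 17 were lower, and after quantile normalization 2 were lower and 1 higher. Of 21 genes of glutathione, thioredoxin and detoxification, 8 were higher and 2 lower, whereas as deposited 2 were higher and 2 lower. The higher ones included *GPX3* (chromosome 13, 13046955 to 13059913), with 35 in leg and 12 in neck and 50.6 FPKM in leg and 15.9 in neck, and the glutaredoxin *GLRX* (14.4 in leg, 6.93 in neck; 0.97). The peroxiredoxins went opposite ways, *PRDX1* higher (349 in leg, 297 in neck; 0.29) and *PRDX6* lower. Of 45 ribosomal protein genes 0 were higher and 1 was lower. For oxidative phosphorylation 1 of 30 genes was higher and 4 were lower, the lower ones being a share near the 9.95% of all genes. The medians of these 30 were -0.06 and -0.01.

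Named alpha keratin genes were similar in the 2 regions. Among 3 named feather keratins above the level filter in the second table, 2 were at least 1.5-fold lower in leg and 0 higher. The epithelial keratins *KRT14* (281 FPKM in leg, 275 in neck) and *KRT15* (133 in leg, 119 in neck) stood close together in the second table, and none of the alpha keratins passed a threshold. The feather keratin *F-KER* was among the highest genes of the second table in both regions, with 31971 FPKM in leg and 30066 in neck. *FK27* and *FK21*, feather keratin genes by their names, stood far lower in leg, with 13.3 FPKM in leg and 642 in neck for *FK27*, and 3.26 in leg and 118 in neck for *FK21*. These are 48.4-fold and 36.3-fold differences in single libraries, and reads of near-identical copies may have been divided between genes differently. Of 8 cornified envelope and epidermal differentiation genes in the first table alone, 3 stood at least 1.5-fold lower and 0 higher, against 5.04% and 4.02% of all genes there. They were *EDMTFH* (7 in leg, 1382 in neck), *EDMTF4* (84 in leg, 2337 in neck) and *EDCH4* (2003 in leg, 6172 in neck), all on chromosome 25. *EDMTFH* passed the level filter through neck alone. The names *S100A8* and *S100A9*, in mammals calgranulins, S100 proteins of stressed epithelium and neutrophils, were each listed in 1 table and stood lower in leg. Whether they stand for the same chicken gene was not checked. *S100A8* had 1 in leg and 27 in neck in the first table, and *S100A9* had 0.822 FPKM in leg and 20.8 in neck in the second. Both reached the level filter through neck alone. Among other S100 genes *S100A11* was higher (334 FPKM in leg, 238 in neck; 0.49 ± 0.088), and *S100A16* of the first table had 2850 in leg and 4608 in neck. Of 9 annexins and S100 genes tested, 3 were higher and 0 lower, and 0 were called as deposited. The annexin *ANXA1* was higher (242 FPKM in leg, 160 in neck; 0.67 ± 0.068). The desmosomal plaque gene *DSP* of the first table had 261 in leg and 213 in neck, and the keratinocyte protease inhibitor *SPINK5* of the second had 178 FPKM in leg and 70.3 in neck.

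The largest block of lower values lay on chromosome 27 of the first table. From 534837 to 1223545, 39 neighbouring entries were all at least 1.5-fold lower in leg, a stretch found after the values were seen by looking for runs of 5 or more such entries. Their values summed to 4093 in leg and 41007 in neck, a 10.02-fold difference, and wing was at 40635. Entry by entry the leg value ran from 0 to 1151 with a median of 18, and the neck value ran from 20 to 6592 with a median of 270. The relative log2 ratios ran from -6.38 to -0.60 with a median of -4.08, and every entry was lower in leg than in neck and in wing. The most abundant in neck were ENSGALG00000039851 (186 in leg, 6592 in neck) and ENSGALG00000043974 (190 in leg, 4448 in neck). Of the 39, 26 share one locus from 546684 to 919605, so that they are not independent. Apart from *GTSF1* at the end of the stretch (18 in leg, 65 in neck) and 1 entry without a name, they carry only an Ensembl identifier that was not paired with a gene name. On chromosome 27 as a whole 32 of 135 entries (23.7%) were at least 4-fold lower in leg, against 25 of 5208 (0.48%) on assembled chromosomes other than 25 and 27. Apart from uc_338 (0 in leg, 99 in neck) these 32 entries lie in the stretch, so the share counts it again and is no separate evidence. Entries near 0 in leg passed the level filter through neck alone.

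Chromosome 25 held runs in both directions. A run of 7 neighbouring entries from 1971170 to 2002921 was lower in leg and summed to 18984 in leg and 50701 in neck. Among them were *EDMTFH* and *EDMTF4*, already counted above, and *EDbeta* (6838 in leg, 12969 in neck). Directly beside them, from 2003700 to 2026934, 12 entries were higher in leg and summed to 1653 in leg and 552 in neck, a 2.99-fold difference, with wing at 4907. These 12 entries lie at 7 loci, with 4 of them at 1 locus, so that they are not independent. The highest of the 12 in leg was ENSGALG00000029861, with 364 in leg and 134 in neck. Of the 2 lower runs further up the chromosome, one from 1017250 to 1029222 summed to 17505 in leg and 37765 in neck over 7 entries, and the other from 1032823 to 1042791 summed to 14626 in leg and 34220 in neck over 6. Their median log2 ratios were -0.84 and -0.81, against -4.08 for the run on chromosome 27. Genes of the second table that RefSeq places on chromosome 25 of GRCg7b also fell on both sides. *LOC771066* had 78.1 FPKM in leg and 14.6 in neck, *LOC100858504* 76.7 in leg and 19.6 in neck, and *LOC396480*, with the older name sKer in RefSeq, 191 in leg and 61.6 in neck, whereas *LOC431316* had 2335 in leg and 4642 in neck and *LOC100859616* 2552 in leg and 5050.4 in neck. The most abundant, *LOC429492*, had 40035 in leg and 31529 in neck. Since these families hold near-identical copies, the values of single members are uncertain.

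**Figure D4:**
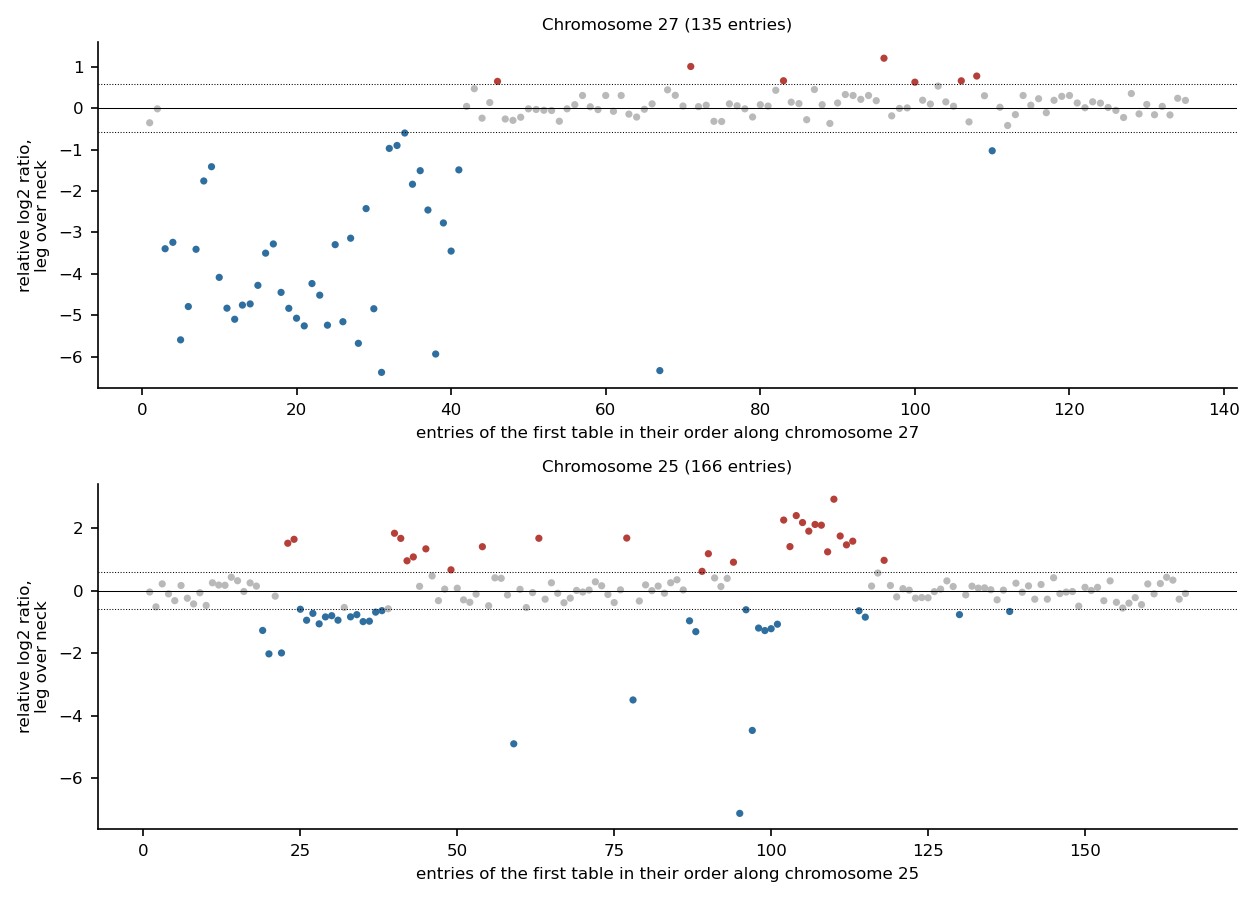
Relative log2 ratio of leg over neck (y axis) for the first-table entries of chromosome 27 (135 entries, upper panel) and chromosome 25 (166 entries, lower panel), in their order along the chromosome (x axis), with dotted lines at 1.5-fold. Red entries are at least 1.5-fold higher in leg and blue ones at least 1.5-fold lower; the run of 39 lower entries stands at the start of chromosome 27, and the run of 12 higher entries of chromosome 25 follows directly on a run of lower ones.

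Away from these chromosomes, 4 entries on chromosome 10, all from 634001 to 674165, were nearly absent in leg. They were picked as the entries of that chromosome at least 4-fold lower in leg, and whether other entries lie between them was not checked. The highest, ENSGALG00000041206, had 5 in leg and 473 in neck, and the others had 0 to 2 in leg and 94 to 183 in neck. Wing lay between them, above leg at each entry, at 3 to 15 over the 4. Several entries of the first table were listed at 0 in one region: ENSGALG00000032201 had 1295 in leg and 0 in neck, while ENSGALG00000030082 had 0 in leg and 2852 in neck, both on unplaced scaffolds. Small RNA genes behaved likewise, with *SNORA74*, a small nucleolar RNA, at 65 in leg and 0 in neck, and *U1*, a spliceosomal RNA, at 0 in leg and 988 in neck. The entry *BlSK1*, which is not one of these small RNAs, had 0 in leg and 228 in neck. No fold is given for entries listed at 0.

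Among genes of the second table alone, those with the largest differences held several secreted and membrane proteins. *MASP1*, a protease that starts the lectin branch of complement, had 10.7 FPKM in leg and 1.25 in neck, an 8.54-fold difference. *AQP1*, the water channel of vessels and red cells, had 26.5 in leg and 5.64 in neck, and *CRIP1*, a small LIM protein, had 29.3 in leg and 7.47 in neck. On the lower side *TM4SF1*, a four-pass membrane protein, had 37.8 FPKM in leg and 239 in neck, *SCG3*, a granin of secretory vesicles, had 1.56 in leg and 8.87 in neck, and *AVR2*, an avidin-related gene, had 211 in leg and 709.8 in neck. *LOC770639* (32.1 in leg, 1205 in neck) and *LOC770684* (39.0 in leg, 195 in neck) have no match in the RefSeq table used here. Each of these values rests on 1 library per region.

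Stress-response and transport genes added smaller differences. Of 14 immediate early and stress-response genes 3 were lower and 0 higher, as deposited and after quantile normalization too: the stress regulator *ATF4* (480.2 FPKM in leg, 725.8 in neck; -0.52), *GADD45A*, a growth arrest gene (199.5 in leg, 328 in neck; -0.68), and *FOSL2*, a component of AP-1 (64.8 in leg, 93.4 in neck; -0.45). Of 16 ATPases, ion channels and aquaporins, 4 were lower and 3 higher, against 9.95% and 9.90% of all genes. Subunits of one enzyme lay on both sides. The vacuolar ATPase subunits *ATP6V0B* (54.6 FPKM in leg, 81.9 in neck; -0.53) and *ATP6V0C* (181 in leg, 265 in neck; -0.49) were lower and *ATP6V1A* (51.6 in leg, 45.9 in neck; 0.28) was higher. The sodium pump subunit *ATP1B3* was lower as well (245 in leg, 379.6 in neck; -0.52), and none of the 3 higher genes was called as deposited. The iron exporter *SLC40A1* had 133 in leg and 236 in neck, and 365 FPKM in leg and 581 in neck (-0.55). *DIO2*, the deiodinase that activates thyroid hormone, had 12 in leg and 6 in neck, and 35.9 FPKM in leg and 14.4 in neck, a ratio of 1.28 with an adjusted p of 0.00049.

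Of cell cycle genes 2 of 24 were higher, near the 9.90% of all genes (*CCNB2*, cyclin B2, 0.38, and the spindle protein *TPX2*, 0.48), neither as deposited, and the replication licensing inhibitor *GMNN* was lower (62.4 FPKM in leg, 91.9 in neck; -0.46). Of 12 guidance genes only the Eph receptor *EPHA1* passed (183 FPKM in leg, 156 in neck; 0.30), and not as deposited. Among those of the second table alone, *NTN1*, the guidance cue netrin 1, had 4.61 FPKM in leg and was listed at 0 in neck, so that it reached the level filter through leg alone. *SEMA3F*, a semaphorin, had 4.69 in leg and 1.32 in neck. The chemokine *CXCL12*, made by mesenchyme in many tissues, had 8.90 FPKM in leg and 4.46 in neck there, and *CXCL14*, a chemokine of epithelia, was lower in both tables (1 in leg and 3 in neck; 2.997 FPKM in leg and 5.203 in neck; -0.62).

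Among the called genes the tables differed most for *TCEANC2*, with -0.91 for replicate 1 and -0.41 for replicate 2, followed by *ASIP*, *MYO5A*, *COL1A2* (2.03 and 1.60) and *LY86* (0.89 and 1.30). In all 5 the direction was the same in both tables, as the rule for calling requires.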

How the data were processed

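RNA of growing feathers was sequenced on an Illumina platform, and 2 tables of gene values were used, one for replicate 1 and one for replicate 2 of leg, neck and wing. In the first table the authors deposited whole-number values, treated here as a score because their unit is not given in the sources used here. In the second table the authors deposited FPKM values, and 1 column of the authors' mean was not used. The submitters' processing notes name galGal4, TopHat2 2.1.0 and Cufflinks 2.2.1, but the tables name no assembly. Gene names were matched through RefSeq (GRCg7b), and names damaged by date conversion, 8 and 10 in the tables, were left out of the matching.

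Values were taken as log2(value + 1), and each library was centred on the median log2 ratio to the neck library of its table. All 6 libraries entered one limma 3.58.1 fit (R 4.3.3) with the table as a block and a trended variance, on genes whose mean reached 1 in each table, with 2 residual degrees of freedom and 4.454 prior degrees of freedom. A gene was called at a Benjamini-Hochberg adjusted p under 0.05 with the same sign in both tables. The fit was also run on simulated data with independent noise of its own fitted spread. Such data cannot show whether the replicates are independent. Genes listed in 1 table were described by a 1.5-fold difference where their mean reached 10 (first table) or 1 FPKM (second table). Libraries of the same number lie in the same table, and the table was made the block because the units of the tables differ. Deviations of these libraries from the region means correlated at 0.92 to 0.97. As the region means pool the tables, the deviations carry the difference in unit, so this correlation cannot show a pairing of the libraries.

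The genes named were the 12 largest increases and decreases, up to 6 called members of each gene list, the 8 largest differences in each direction among genes of 1 table whose mean reached 10 (first) or 5 FPKM (second), and the 5 called genes that differed most between tables. Other genes, such as those that did not pass, list members found in 1 table, the tetrahydrobiopterin genes and the runs of neighbouring entries, were chosen after their values were seen. Some genes that these rules select are not reported here. The comparison and the 62 gene lists were chosen with earlier results of these data known. Alternatives were no block, values as deposited, quantile normalization, another pseudocount, level minimum, fold or gene matching, and the 4 leg and neck libraries alone. Tables and figures were made with Python 3.11.15, pandas 2.3.3, numpy 2.4.6 and matplotlib 3.10.9.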

Additional observations from a re-analysis of the deposited data

How the results depend on the processing

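The counts of 212 higher and 213 lower genes were 207 to 244 in either direction under quantile normalization, a pseudocount of 0.1, no minimum or a minimum of 10, and identical names only. Without the replicate block 0 were higher and 0 lower. As deposited, 38 were higher and 232 lower, so that 14.1% of the calls were higher, against 49.9% after centring. With only the 4 leg and neck libraries 552 were higher and 548 lower. Leaving out a replicate left no residual degrees of freedom and so no test. The number of genes at least 1.5-fold higher ran from 59 to 64 and at least 1.5-fold lower from 36 to 46 with one replicate left out, against 46 and 22 in both tables. At 2-fold these counts were 24 and 5, and as deposited 28 and 68. Among genes of the first table alone, 2-fold gave 55 higher and 79 lower, and values as deposited 66 and 506. Among genes of the second table alone, 2-fold gave 123 higher and 25 lower, and centring on that table's own genes 230 and 112. The settings as deposited for fold counts and own centring were chosen after seeing the data, and the cause of these changes was not tested. Of 170 genes followed one by one, 170 lost the call without the block and 68 as deposited, 11 after quantile normalization, and 0 changed direction. These genes were selected as called with the same sign in both tables, so their unchanged direction largely follows from that choice and supports nothing further. The fit without the block counts the difference in unit between the tables as spread, so its loss of calls says nothing about single genes. The tables give no counts, so the precision of low values is unknown.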

Other observations

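The tables disagreed on a few genes, some of them at low values. *DUSP1*, a phosphatase induced by stress and growth factors, had 423 in leg and 33 in neck in the first table, but 47.8 FPKM in leg and 50.3 FPKM in neck in the second, and did not pass the test (adjusted p of 0.16 by limma). *ARF5*, a small GTPase of vesicle traffic, had 19 in leg and 21 in neck in the first table, and was listed at 0 in leg and at 7.11 FPKM in neck in the second (adjusted p of 0.27). *KRT5*, a keratin of basal epithelial cells, had 244 in leg and 307 in neck in the first table and was listed at 0 FPKM in both regions in the second, and the melanosome gene *PMEL* had 17 in leg and 24 in neck and was likewise listed at 0 FPKM.

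Markers of fat and nerve were listed as well. Adipocyte markers summed to 44.5 FPKM in leg and 54.0 in neck in the second table, and within the list the fatty acid carrier *FABP4* (1.43 in leg, 4.83 in neck) and the hormone gene *ADIPOQ* (6.40 in leg, 2.17 in neck) lay on opposite sides. Nerve markers summed to 7.13 FPKM in leg and 7.46 in neck.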
